A study of Mus musculus with 12 samples.

Results

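Embryoid bodies of 2 mutant mouse embryonic stem cell lines, Trim33-KD and Smad4-null, were set against each other across both treatments of the study. The 4 Trim33-KD and 4 Smad4-null samples, taken by their genotype labels, made 8 of the 12 samples of the series, and the other 4, wild type (WT), entered no test of the comparison. Total RNA of each sample was hybridised to 1 Affymetrix expression array, and the values are log2 signals. All 3 lines were of strain 129, and the embryoid bodies, floating aggregates of differentiating stem cells, were grown in medium lacking LIF and treated at day 2.5 for 2 h. The treatment was activin (ac, 50 ng/ml) or SB431542 (SB, written as 10 mM in the labels), an inhibitor of the type I receptors of activin and nodal, so that each mutant line had 2 activin and 2 SB431542 arrays. No group was left untreated. The labels do not say how Trim33 was knocked down, whether a line is 1 clone, or whether the replicates came from separate cultures, and where they did not, the p-values reflect only sample-to-sample spread, which may be technical. Line and genotype change together, so no difference can be assigned to either mutation alone.

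Nodal and activin signal through Smad2 and Smad3, which bind Smad4 and carry the signal to target genes. Trim33, also called TIF1-gamma, is a nuclear ubiquitin ligase that binds activated Smad2 and Smad3 and has been described both as a limiter of Smad4 and as a reader of chromatin at mesendoderm genes. In the early embryo nodal acts with Wnt, BMP and FGF signals to form the primitive streak, the source of mesoderm and endoderm, while naive pluripotency genes are turned down. Setting the lines directly against each other asks which parts of this program are at different levels in a line low in Trim33 and in a line without Smad4.

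Trim33 and Smad4 were examined in every array before other genes. Trim33, at its brightest probe set, had signals of 10.35, 9.85, 10.29 and 10.25 on the Trim33-KD arrays against 11.69, 11.62, 11.82 and 11.79 on the Smad4-null arrays. Every Trim33-KD array lay below every Smad4-null array, by 1.55 on the log2 scale on average (2.93-fold, SE 0.13, adjusted p = 0.00327). Smad4 itself had 11.89 ± 0.09 in Trim33-KD and 12.17 ± 0.05 in Smad4-null (log2 mean ± SD, n = 4 each), a difference of -0.27 that did not pass (adjusted p = 0.0856). The sources used here do not place the Smad4 probe sets against the mutated part of the gene, so this signal checks nothing about the label. Both lines carried high signals of stem cell genes: Pou5f1, the core pluripotency factor, was 13.23 ± 0.04 and 12.90 ± 0.09, in that order. Of the blood and endothelium markers 4 of 10 lay under log2 6 in both lines, among them the embryonic globin gene Hba-x (2.61 and 3.48) and the leukocyte gene Ptprc (1.39 and 2.72), and of the extraembryonic endoderm markers 6 of 14 did, among them Afp (1.65 and 2.36). The other markers of both lists were above it in at least 1 line.

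Median signals of the 8 arrays lay between 5.85 and 6.25. Smad4-null-ac replicate 1 had the narrowest spread of log2 signal of the 8 (SD 3.13), and Trim33-KD-SB replicate 2 had the largest Actb 3' minus 5' difference (0.74) and 18S rRNA signal (10.2). Correlations over the brighter 50% of genes by mean signal were 0.986 to 0.994 within a group and 0.941 to 0.955 between the lines. Precision is limited by there being 2 arrays a group.

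Of 18193 genes 3078, or 16.9%, differed between the lines in limma over both treatments (Benjamini-Hochberg adjusted p under 0.05, a change called in the following). Trim33-KD was higher in 1806 (9.93%) and lower in 1272 (6.99%). The difference was at least 2-fold for 974, and for 2873 of the called genes the 4 arrays of one line did not overlap with the 4 of the other, which held for 27.2% of all genes. Without adjustment 5889 genes had a p under 0.05, where chance gives 910. WT signals, which took no part in these calls, lay nearer to the Trim33-KD than to the Smad4-null mean for 2477 of the called genes (80.5%), against 59.1% of all genes. The median distance of the called genes from WT was 0.21 for Trim33-KD and 0.65 for Smad4-null, as a description of levels and with no test. In bulk samples, fewer cells of a type and less RNA per cell cannot be told apart for any gene below.

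These counts rest on few arrays. The count was 1122 without Smad4-null-SB replicate 2, 1222 without Smad4-null-SB replicate 1, 1603 without Smad4-null-ac replicate 1, 1755 without Trim33-KD-SB replicate 1, 1768 without Trim33-KD-ac replicate 2, 1790 without Trim33-KD-SB replicate 2 and 2044 without Smad4-null-ac replicate 2. Without Smad4-null-ac replicate 1 and Trim33-KD-SB replicate 2 together, a choice made after the data were seen that leaves 2 groups with 1 array each, 0 genes passed in limma, the smallest adjusted p was 0.0625, and 4611 had an unadjusted p under 0.05. Scaling each array to the same median left 3073 calls but moved the median of all genes from -0.03 to 0.14, and 77.9% of the calls were then higher in Trim33-KD, against 58.7% as deposited.

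**Figure D1:**
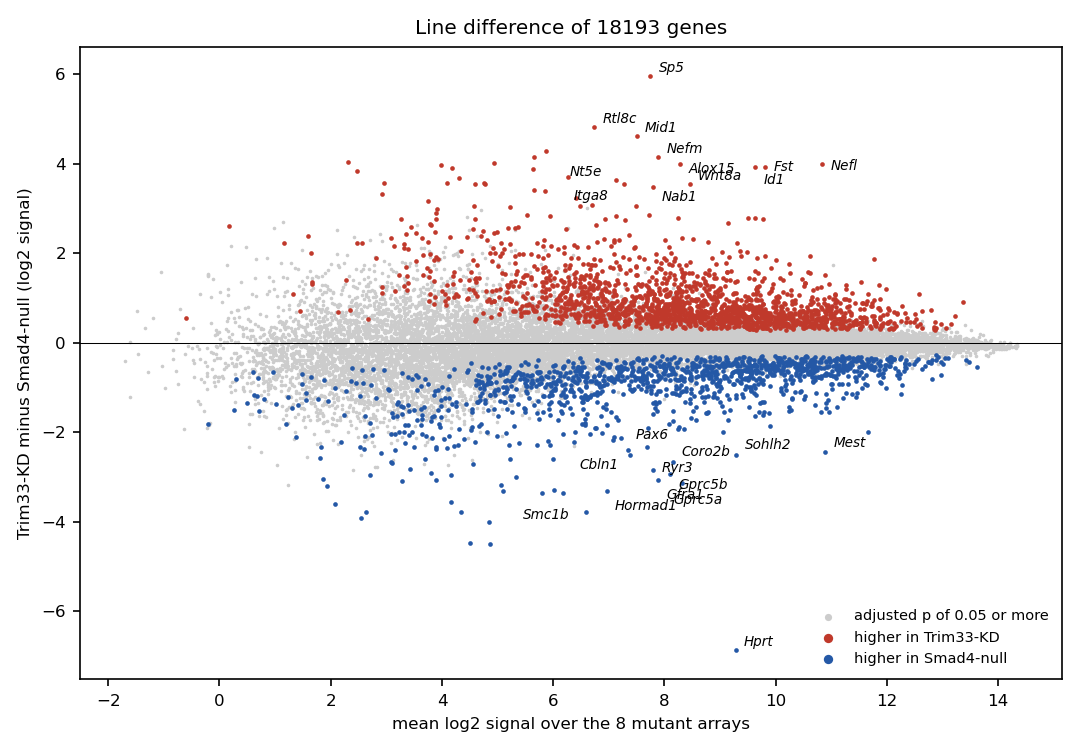
Line difference (Trim33-KD minus Smad4-null, log2 signal, vertical axis) of each of 18193 genes against its mean log2 signal over the 8 mutant arrays (horizontal axis); red points passed as higher in Trim33-KD (1806), blue points as higher in Smad4-null (1272), grey points did not pass. Labels mark the 12 genes with the largest difference in each direction after a floor of 64 on the linear scale, with Sp5 (5.97) at the top and Hprt (-6.87) at the bottom.

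The gene furthest above its Smad4-null level was Sp5, a zinc finger factor gene switched on by Wnt signals. Its signals were 10.93 and 9.84 with SB431542 and 11.16 and 10.99 with activin in Trim33-KD, against 4.99, 4.74, 3.23 and 6.09 in Smad4-null. All Smad4-null arrays but 1 lay under the floor of 64 (log2 6), so the difference of 5.97 (SE 0.67, adjusted p = 0.00688) depends on very dim values, and with the floor it was 4.71. Fst, whose product follistatin binds and blocks activin, had 12.42, 11.35, 11.97 and 11.38 in Trim33-KD and 7.78, 7.40, 8.0 and 8.19 in Smad4-null. Id1, a classical target of BMP Smads, had 11.12, 11.10, 11.75 and 12.38 against 7.79, 7.0, 7.64 and 8.23. The lines were far apart for both genes, 15.3-fold for Fst and 15.2-fold for Id1.

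Other genes among the 12 with the largest floored differences above Smad4-null were of varied function. The neurofilament genes Nefl (12.83 ± 0.24 against 8.83 ± 0.28) and Nefm (9.96 ± 0.13 against 5.80 ± 0.14; log2 mean ± SD, n = 4 each) are neighbours on chromosome 14, with 0 protein-coding genes between them in RefSeq's order. Wnt8a, a Wnt ligand gene of the early streak, stood at 10.22 ± 0.14 against 6.68 ± 0.11 and Nab1, a co-repressor of EGR factors, at 9.54 ± 0.13 against 6.05 ± 0.15. Mid1, a microtubule-bound ubiquitin ligase gene, had 9.81 ± 0.39 against 5.20 ± 0.50. Alox15, a lipoxygenase gene, the integrin gene Itga8, the ecto-nucleotidase gene Nt5e and Rtl8c, derived from a retrotransposon, completed the set with differences of 3.99, 3.56, 3.64 and 4.82. These 12 genes were chosen among calls whose arrays did not overlap between the lines, so neither property is a result. Their adjusted p ran from 0.000573 (Nefm and Wnt8a) to 0.00688 (Sp5).

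Hprt, which encodes the purine salvage enzyme HPRT, had the largest difference of any called gene in the other direction. Its signals were 6.16, 5.61, 5.69 and 5.91 in Trim33-KD and 12.59, 12.67, 12.91 and 12.69 in Smad4-null, a difference of -6.87 (SE 0.15, adjusted p = 0.000573). All Trim33-KD arrays but 1 lay under the floor, and with the floor the difference was -6.68. WT arrays had 6.15 ± 0.24, so Smad4-null stood apart and the other lines lay together. Hprt and Rtl8c, which was low in Smad4-null, both lie on the X chromosome with 6 protein-coding genes between them. The orphan receptor genes Gprc5a (-3.13) and Gprc5b (-2.94), Gfra1 (-3.06), a co-receptor gene for GDNF, and Ryr3 (-2.84), a calcium channel gene, were also much lower in Trim33-KD. So were genes of the germ line and meiosis: Hormad1 (-3.32), Smc1b (-3.79) and Sohlh2 (-2.51), with Smad4-null means of 8.62, 8.48 and 10.54. Coro2b (-2.67), Cbln1 (-2.50), the imprinted gene Mest (-2.43) and the neural factor Pax6 (-2.39) completed the 12. Mest was tight in both lines, at 9.69, 9.70, 9.56 and 9.72 against 12.13, 12.09, 12.08 and 12.09.

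**Figure D2:**
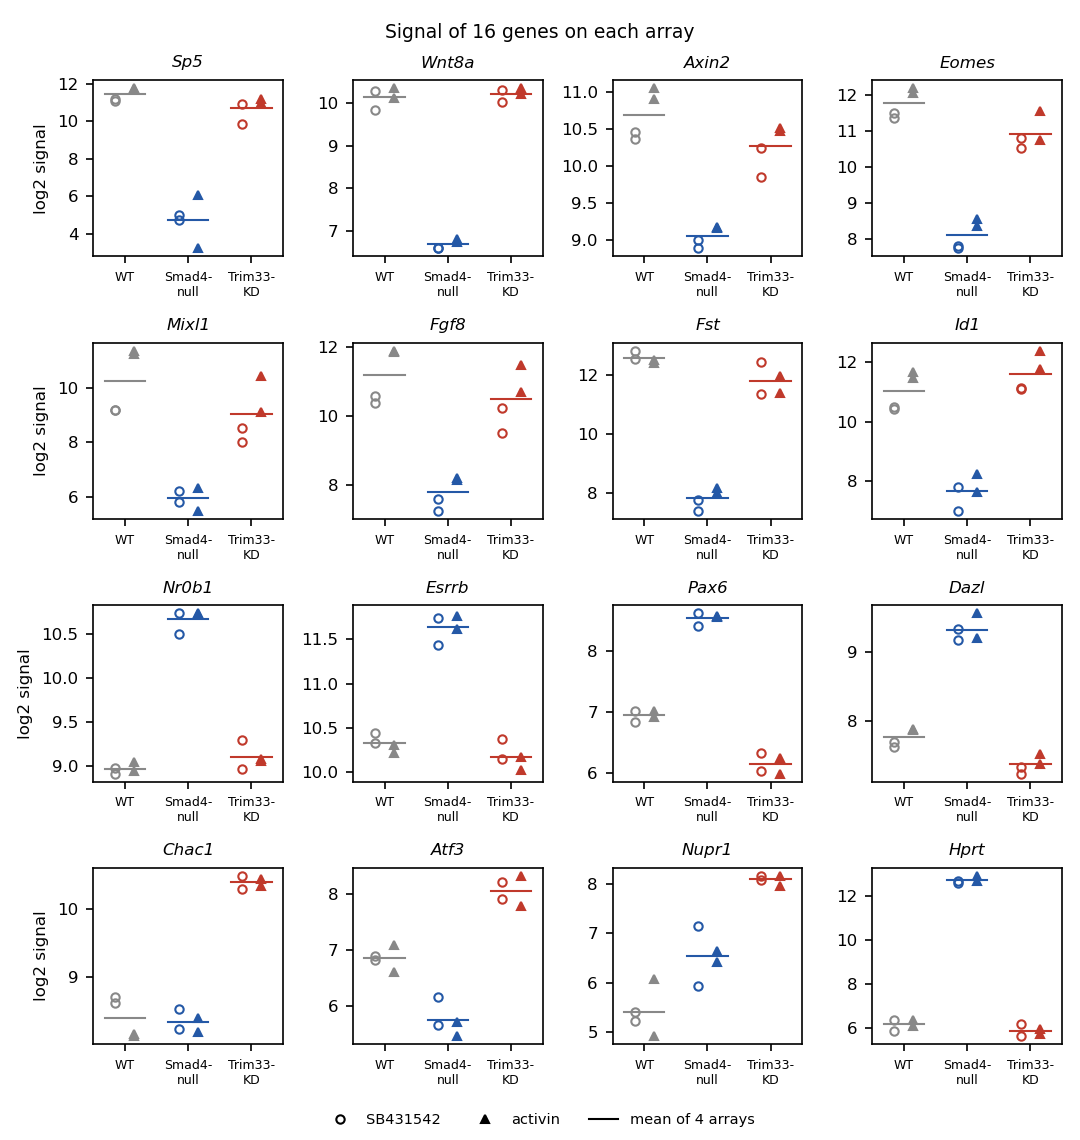
Log2 signal (vertical axis, scaled per gene) of 16 genes on all 12 arrays, by line; open circles are SB431542, filled triangles activin, and bars the mean of the 4 arrays of a line. Sp5, Wnt8a, Axin2, Eomes, Mixl1, Fgf8, Fst and Id1 are low on the Smad4-null arrays, Nr0b1, Esrrb, Pax6, Dazl and Hprt are high there, and Chac1 is high on the Trim33-KD arrays (10.39 on average, against 8.33 and 8.40).

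Transcription factors that mark the primitive streak and its mesendoderm were higher in Trim33-KD. Of 11 measured members 5 were called higher and 0 lower (9.93% and 6.99% of all genes). The median difference was 0.96 against -0.03 over all genes. The streak gene T is on this list but was among the genes not analysed. Eomes, a T-box gene required for endoderm, had 10.80 and 10.51 with SB431542 and 11.53 and 10.74 with activin, against 7.74, 7.80, 8.56 and 8.35 in Smad4-null. Mixl1, a homeobox gene of the streak, had 8.52, 8.01, 10.43 and 9.09 against 6.23, 5.83, 6.31 and 5.49. For both, the lowest Trim33-KD array exceeded the highest Smad4-null array, and the differences were 2.78 (SE 0.20, adjusted p = 0.00289) and 3.05 (SE 0.37, adjusted p = 0.00838). Evx1, a posterior streak gene, was 7.54 ± 0.37 against 4.15 ± 0.77, and Gata4, a cardiac and endoderm factor that lies on chromosome 14, differed by 0.63 (adjusted p = 0.0229). Gsc, the organizer gene, was called with 3.04, but its arrays overlapped (lowest Trim33-KD 5.52, highest Smad4-null 5.85), and with the floor it had 0.87 and did not pass (adjusted p = 0.0572).

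The other 6 members did not pass: Lhx1 (2.56, adjusted p = 0.0644), Foxa2 (0.96), Sox17 (0.64), Hhex (0.49), Gata6 (0.46) and Mesp1 (0.39). All 6 differences were positive, and the spread was wide, with Foxa2 from 8.15 to 10.32 within Trim33-KD alone. WT lay nearer to Trim33-KD than to Smad4-null for all 11 members. Over single left-out arrays 3 to 5 members were called, 3 without either Smad4-null-SB array, and the median was 0.61 without Trim33-KD-ac replicate 1. It was 1.87 over the 4 members in the brighter 50% of genes and 1.76 without chromosomes 8 and 14. The summed signal of the list was 11.51 to 12.85 on the Trim33-KD arrays and 10.08 to 10.41 on the Smad4-null arrays (log2 of the sum), without overlap.

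Genes of later mesoderm were mixed. Of 15 nascent mesoderm genes 3 were higher and 2 lower (33.3% called, against 16.9% of all genes), with a median of -0.03. Aplnr, the apelin receptor gene, stood at 7.58 ± 0.94 against 3.69 ± 0.71 and Cdh11, a mesenchymal cadherin gene on chromosome 8, at 8.02 ± 1.03 against 4.96 ± 0.20. The Notch ligand genes went opposite ways, Dll3 at 0.98 and Dll1 at -1.22. Meox1, a somite gene, was called lower (-3.79) from dim values and differed by -0.23 with the floor. Of 10 posterior patterning genes of the Cdx and Hox group 4 were higher and 0 lower (40% called), with a median of 0.63. With the floor the median of the 8 members left was 0.12, with 3 higher and 1 lower, and without Trim33-KD-SB replicate 1 it was 0.39 with 4 higher and 1 lower. Cdx2, a posterior and trophoblast homeobox gene, had 8.28, 7.97, 8.17 and 8.57 in Trim33-KD and 3.96, 5.40, 5.90 and 5.39 in Smad4-null. Nkx1-2 differed by 2.30 and Hoxb1 by 1.06. Cdx1 was called with 3.97 while all its Smad4-null arrays were under the floor, and with the floor it had 0.12 and did not pass.

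Wnt pathway genes were among those furthest apart. Of 11 Wnt targets 5 were higher and 2 lower in Trim33-KD (63.6% called, against 16.9% of all genes), and the median was 0.93. It was 0.25 with the floor (3 higher and 2 lower of 10), 0.22 in the brighter 50% of genes (2 and 2 of 6) and 0.34 without Trim33-KD-ac replicate 1 (3 and 1 of 11). Axin2, a feedback inhibitor that is read as a general Wnt target, had 10.24 and 9.85 with SB431542 and 10.51 and 10.47 with activin, against 8.99, 8.89, 9.18 and 9.16. The arrays did not overlap and the difference was 1.21 (2.32-fold, SE 0.11, adjusted p = 0.00411). Sp8, a relative of Sp5, differed by 1.90, the R-spondin receptor gene Lgr5 by 2.48 and the antagonist gene Dkk1 by 1.37; for Lgr5 the floor left 0.24. Notum, which encodes an enzyme that inactivates Wnt proteins, was higher in Smad4-null on every array (9.84 ± 0.07 against 8.29 ± 0.19). Lef1, a nuclear partner of beta-catenin, was also called lower in Trim33-KD (-0.32). Of 17 Wnt ligand and receptor genes 6 were higher and 2 lower (47.1% called), with a median of 0.10. In the brighter 50% of genes the median was -0.14, with 3 higher and 4 lower of 10. The list's summed signal overlapped between the lines, at 12.84 to 13.23 in Trim33-KD and 13.14 to 13.27 in Smad4-null. Besides Wnt8a the higher genes were Rspo3, a Wnt agonist (7.74 ± 0.35 against 3.58 ± 1.33, and 1.74 with the floor), Wnt11 (2.13), Wnt5b (1.37) and the receptor genes Fzd1 (1.19) and Fzd10 (1.03). The Wnt antagonist gene Sfrp1 (-1.24) and the receptor gene Fzd7 (-1.11) were lower. WT lay nearer to Trim33-KD for all 7 called targets and all 8 called ligands and receptors.

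Sp5 is shown with its promoter because it led the comparison. TCF and LEF factors, the nuclear arm of Wnt signalling, bind sites with the core CTTTGAT. This motif was searched on both strands of the 250 bases before each gene's start in RefSeq promoters (GRCm38.p6), where 3.21% of 32851 promoters hold it. Counted by gene, where a gene may have several promoters, 1 of the 7 Wnt targets with a listed promoter holds it. This gene is Sp5, 1 of the 4 higher members with a promoter. The sequence is on the plus strand at chr2:70474673-70474922, 5′ to 3′, with the match, which begins 104 bases before the start, in capitals.
Sp5: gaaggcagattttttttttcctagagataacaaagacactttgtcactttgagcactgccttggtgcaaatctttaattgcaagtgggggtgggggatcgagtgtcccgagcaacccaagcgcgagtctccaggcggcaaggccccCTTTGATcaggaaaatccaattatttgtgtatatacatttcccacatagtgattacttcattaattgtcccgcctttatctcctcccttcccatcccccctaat
A match describes letters and not binding, and the absence of one in the other targets says only that these letters are not in this window.

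BMP targets were higher in Trim33-KD. Of 15 BMP pathway genes 7 were higher and 1 lower (53.3% called, against 16.9% of all genes), with a median of 0.60. The median was 0.91 without chromosomes 8 and 14 and 0.50 with the floor. It was 0.45 with probe sets averaged and 0.40 in the brighter 50% of genes. The Id genes, which encode inhibitors of helix-loop-helix factors and are direct targets of BMP Smads, did not all go one way. Besides Id1, Id2 had 9.30, 9.89, 10.22 and 10.28 against 8.0, 7.59, 7.29 and 7.76. Id3 had 11.22, 10.99, 11.05 and 11.22 against 9.43, 9.21, 9.56 and 9.28. Both were higher on every Trim33-KD array, by 2.26 (SE 0.20) and 1.75 (SE 0.12), whereas Id4 was lower by 0.83 on average (7.68 ± 0.41 against 8.51 ± 0.17, adjusted p = 0.00781). The homeobox genes Msx1 (1.53) and Msx2 (1.08), the pseudoreceptor gene Bambi (0.60) and Smad5 (0.40) were also higher. Genes of BMP ligands and receptors did not pass: Bmp4 had 0.23, Bmp7 -0.28, Bmp2 1.05, Bmpr1a 0.33 and Bmpr2 0.24. The list's summed signal was 13.47 to 14.01 in Trim33-KD and 12.66 to 12.76 in Smad4-null.

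Among nodal ligands and antagonists, 5 of 13 genes were higher and 2 lower (53.8% called, against 16.9% of all genes), with a median of 0.41. Nodal itself had 11.75 and 11.53 with SB431542 and 12.42 and 12.28 with activin in Trim33-KD, against 10.88, 10.85, 11.37 and 11.32 in Smad4-null. Its lowest Trim33-KD array was above its highest Smad4-null array, and the difference was 0.89 (1.86-fold, SE 0.09, adjusted p = 0.00475). Cer1, a secreted antagonist of nodal, BMP and Wnt, stood at 7.37 ± 0.70 against 3.95 ± 0.24 and differed by 1.37 with the floor. Furin, whose protease matures nodal, differed by 0.70 and Lefty2, a nodal antagonist gene, by 0.75. Gdf3, a nodal-related ligand gene, and Cfc1, a co-receptor gene, were each lower by the same amount (-0.73). Lefty1 (-0.36, adjusted p = 0.186) and the co-receptor gene Tdgf1 (0.41, adjusted p = 0.0521) did not pass, nor did Inhba (-0.27), Inhbb (-0.77), Fstl3 (1.07) or Pcsk6 (-0.08).

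Of 14 Smads, cofactors and receptors 2 passed (14.3%, near the 16.9% of all genes), both higher: Tgfbr2, the type II TGF-beta receptor gene (7.50 ± 0.24 against 5.74 ± 0.25), and Foxh1, the DNA-binding partner of Smad2 (0.54). Smad2 had -0.14, Smad3 -0.03, Acvr1b 0.09 and Acvr2b -0.12, and their p did not pass. Of 8 genes of the TIF1 and HP1 families, the relatives and chromatin partners of Trim33, Trim33 alone passed (12.5%). Trim24 had 0.30 (adjusted p = 0.0748), Trim28 -0.10 and Cbx1 -0.15. Of 9 Smad feedback genes, which restrain the pathway, 3 were higher (33.3%): Smad7 (1.45), Pmepa1 (1.15) and Bambi. A dimmer probe set of Smad7 differed by 0.11, and with its probe sets averaged Smad7 had 0.78 and did not pass, nor did it in the additive fit (adjusted p up to 0.203 over the alternatives). Skil had -0.34, Tgif1 -0.14, Smurf1 0.26, Smurf2 0.12, Nedd4l 0.05 and Ldlrad4 -0.24, with a list median of 0.12.

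FGF ligands and receptors differed in both directions, with 77.8% of the list called, against 16.9% of all genes. Fgf8, a ligand of the streak, had 10.24 and 9.50 with SB431542 and 11.49 and 10.70 with activin, against 7.61, 7.26, 8.22 and 8.16. Fgf17, a relative on chromosome 14, was higher by 0.87, as was the receptor gene Fgfr1 by 0.46. Fgf4, a ligand of pluripotent cells, was lower (10.17 ± 0.31 against 11.28 ± 0.21), and so were Fgfr2 (-1.22), Fgf15 (-0.80) and Fgfr3 (-0.39). In all, 3 of 9 members were higher and 4 lower, while the median was 0.46 and turned negative in the brighter 50% of genes, with chromosomes 8 and 14 left out and when all probe sets of a gene were averaged (-0.17, -0.39 and -0.04), so the list has no single direction. Targets of ERK, the kinase downstream of FGF, were more uniform. Of 12 genes 6 were higher and 1 lower (58.3% called), with a median of 0.53. The ETS factor gene Etv4 differed by 1.61, the feedback genes Spry2, Dusp6 and Dusp4 by 1.02, 0.93 and 0.86, and Spry1 was lower (-0.55). Spry2 and Dusp4 lie on chromosomes 14 and 8.

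Naive pluripotency genes were higher in Smad4-null. Of 15 members 8 were lower in Trim33-KD and 1 higher (60% called, against 16.9% of all genes), and the median was -0.72. Nr0b1, a nuclear receptor of the ground state, had 8.96, 9.29, 9.07 and 9.05 in Trim33-KD and 10.50, 10.73, 10.73 and 10.74 in Smad4-null. Esrrb, an orphan receptor gene and Nanog target, had 10.14, 10.37, 10.17 and 10.01 against 11.43, 11.74, 11.76 and 11.62. Neither gene's arrays overlapped, and the differences were -1.67 and -1.60 with activin and -1.49 and -1.33 with SB431542. Tcl1 (-1.41), Prdm14 (-1.34), Klf4 (-1.22), Zfp42 (-1.02), Tet2 (-0.74) and Klf2 (-0.72) were also lower, and Klf5 was higher (0.76). Zfp42 and Klf2 lie on chromosome 8 and Klf5 on chromosome 14. Among brighter genes, chromosome 8 had 96 called lower and 5 higher in runs 6 to 8 of its 8 runs. In its runs 1 to 5 the counts were near balance, with 32 lower and 26 higher. Which of these runs hold Zfp42 and Klf2 is not given here. With median centring 6 were lower in place of 8. Of 8 core factors, by contrast, Pou5f1 was higher by 0.33 and Sox2 lower by 0.42, while Nanog had 0.17 and did not pass. The called share of the core list was 25%, against 16.9% of all genes. Sox2 did not pass with quantile normalization or median centring, and neither gene passed with probe sets averaged or with any 1 array left out.

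Primed epiblast genes split, with 2 of 11 higher (Wnt8a and Sfrp2) and 2 lower (Otx2 and Pou3f1). The called share was 36.4%, against 16.9% of all genes. Otx2, an anterior epiblast gene on chromosome 14, had 9.79 and 10.06 with SB431542 and 10.96 and 10.52 with activin in Trim33-KD, below 11.39, 11.45, 11.58 and 11.53 in Smad4-null, and WT (11.28 ± 0.36) was nearer to Smad4-null here. Of 13 neuroectoderm genes 3 were lower and 1 higher (30.8% called). The median was -0.59, and it was -0.28 with the floor and -0.34 without Smad4-null-SB replicate 1. Pax6 led with 6.33, 6.02, 6.24 and 5.99 against 8.62, 8.41, 8.55 and 8.57, and the neuronal tubulin gene Tubb3 differed by -0.91. Hesx1 (-1.85) did not pass with the floor, and Nes, an intermediate filament gene of neural and other progenitors, was higher in Trim33-KD (9.66 ± 0.08 against 8.12 ± 0.08). Of 10 germ cell genes 4 were lower and 0 higher (40% called). The median was -0.44, and it was -0.27 with median centring (3 lower and 1 higher). Dazl, a translational regulator of germ cells, had 7.25, 7.35, 7.54 and 7.39 against 9.17, 9.33, 9.55 and 9.19, and Prdm14, Prdm1 (-0.83) and Mael (-0.73) passed too. Prdm14 counts in the naive list as well.

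**Figure D3:**
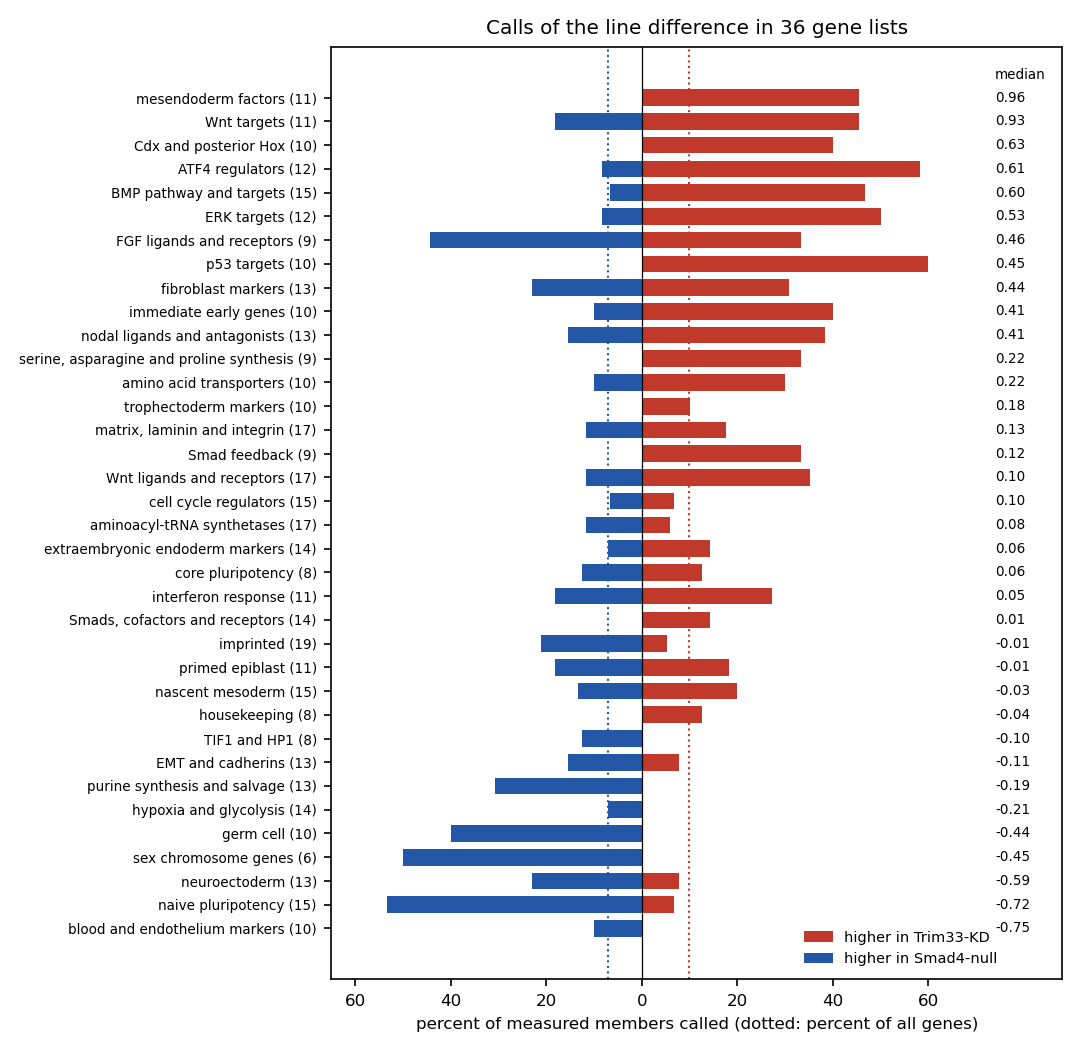
Percent of the measured members of each of 36 gene lists (number in brackets) that were called higher in Trim33-KD (red, to the right) or higher in Smad4-null (blue, to the left), sorted by the list's median line difference, which is printed at the right. Dotted lines mark the shares of all 18193 genes (9.93% and 6.99%); mesendoderm factors have the highest median (0.96), and naive pluripotency genes have -0.72.

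Stress genes regulated by ATF4 were higher in Trim33-KD, and for most of them the WT level was nearer to Smad4-null. ATF4 is translated when eIF2 is phosphorylated and drives genes of amino acid supply and stress. Of its 12 regulators and targets 7 were higher in Trim33-KD and 1 lower (66.7% called, against 16.9% of all genes). The median was 0.61 (0.37 over the 10 members in the brighter 50% of genes). WT lay nearer to Trim33-KD for 1 of the 8 called genes. Chac1, which encodes an enzyme that degrades glutathione, had 10.49, 10.30, 10.44 and 10.34 in Trim33-KD, 8.23, 8.53, 8.18 and 8.39 in Smad4-null and a WT mean of 8.40. Atf3, a stress transcription factor gene, had 8.22, 7.92, 7.79 and 8.34 against 6.15, 5.66, 5.46 and 5.72, with WT between them at 6.86. Nupr1 had 8.15, 8.08, 8.16 and 7.96 against 5.94, 7.14, 6.41 and 6.64, with WT below both at 5.41. All 3 genes were higher on every Trim33-KD array, by 2.06, 2.32 and 1.56 (adjusted p = 0.00229, 0.00336 and 0.0206).

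Sesn2 (1.40), the pseudokinase gene Trib3 (1.05), Atf5 (0.69) and Cebpb (0.54) were also higher, whereas the mRNA of Atf4 itself was lower by 0.36 on average and Ddit3 had -0.21 and did not pass. Of 9 genes of serine, asparagine and proline synthesis 3 were higher (33.3%). These were Phgdh (12.47 ± 0.06 against 11.78 ± 0.02), Psph (0.56) and Psat1 (0.29). The other probe sets of Phgdh differed by 0.61, 0.88 and 6.21, the last with 12.66 against 6.45, so the size of its difference is uncertain. Of 10 amino acid transporter genes (40% called) 3 were higher, Slc1a4 (1.08), Slc6a9 (0.79) and Slc7a1 (0.70), and Slc7a3 was lower (-0.47). Of 17 aminoacyl-tRNA synthetase genes 1 was higher (Nars, 0.32) and 2 lower (Aars, -0.47, and Kars, -0.34, both on chromosome 8), 17.6% against 16.9% of all genes, with a median of 0.08. The difference from the ATF4 list was not tested. Trim33-KD-SB replicate 2, the array with the largest Actb 3' minus 5' difference, had 10.30 for Chac1, 7.92 for Atf3 and 8.08 for Nupr1. Without both doubted arrays the differences of Chac1, Atf3 and Nupr1 were 2.06, 2.33 and 1.52.

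The promoters of Atf3, Chac1 and Nupr1 are shown because they led this list and share letters. C/EBP-ATF composite sites, bound by ATF4 with a C/EBP partner, have the form TGATGNAA. Both strands of the 250 bases before each start were searched. Counted by gene, 3 of the 12 in the list hold this form, all 3 among the 7 higher genes. Counted by promoter, of which a gene may have several, 3.45% of 32851 hold it. TGATGNAA and CTTTGAT share the letters TGAT. Here the match lies on the opposite strand of each gene, so the capitals read as its reverse complement, and it begins 110 (Atf3), 193 (Chac1) and 110 (Nupr1) bases before the start. The sequences are RefSeq's (GRCm38.p6), 5′ to 3′ on the gene's strand, at chr1:191183334-191183583 (minus), chr2:119350992-119351241 (plus) and chr7:126625471-126625720 (minus).
Atf3: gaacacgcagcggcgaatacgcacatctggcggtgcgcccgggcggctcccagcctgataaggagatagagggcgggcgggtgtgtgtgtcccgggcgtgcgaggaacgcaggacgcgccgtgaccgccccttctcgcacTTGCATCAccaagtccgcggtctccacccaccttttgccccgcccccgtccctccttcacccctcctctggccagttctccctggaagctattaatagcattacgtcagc
Chac1: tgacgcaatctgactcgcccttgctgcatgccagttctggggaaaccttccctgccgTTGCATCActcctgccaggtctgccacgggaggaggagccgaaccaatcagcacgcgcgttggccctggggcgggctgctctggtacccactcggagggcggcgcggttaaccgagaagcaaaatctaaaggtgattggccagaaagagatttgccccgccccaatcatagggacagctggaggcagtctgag
Nupr1: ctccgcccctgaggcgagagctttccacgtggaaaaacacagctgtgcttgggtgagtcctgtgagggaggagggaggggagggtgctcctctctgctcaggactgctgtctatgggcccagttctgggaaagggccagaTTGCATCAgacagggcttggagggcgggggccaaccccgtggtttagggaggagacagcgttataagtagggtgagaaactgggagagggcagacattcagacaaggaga
These matches are a description of the sequences, and binding was not measured.

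Genes induced by p53 were higher in Trim33-KD as well, and so were some immediate early genes, which growth signals induce. Of 10 p53 targets 6 were higher and 0 lower (60% called, against 16.9% of all genes), with a median of 0.45. Perp, a desmosomal gene, had 9.69, 10.21, 9.60 and 10.20 against 8.74, 8.21, 8.06 and 8.33, and Btg2 (0.93), Phlda3 (0.79), the cyclin-dependent kinase inhibitor gene Cdkn1a (0.70), Bbc3 (0.46) and Ccng1 (0.42) followed. Mdm2 had 0.22 and did not pass. Over single left-out arrays 2 to 6 of them were called. Of 10 immediate early genes (50% called) Junb (1.17), Jun (0.97), Fos (0.84) and Myc (0.79) were higher and Mycn was lower (-0.48). Egr1 had 0.50 and did not pass. The median of this list was 0.41 over both treatments and 0.15 with activin. Its summed signal overlapped between the lines, at 13.49 to 13.77 in Trim33-KD and 13.55 to 13.82 in Smad4-null. Junb lies on chromosome 8, where most called genes went the other way. Among brighter genes this came from runs 6 to 8 (5 higher and 96 lower), while runs 1 to 5 had 26 higher and 32 lower.

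Of 13 genes of purine synthesis and salvage 4 were lower in Trim33-KD and 0 higher (30.8% called, against 16.9% of all genes), with a median of -0.19. With median centring the median was -0.02, 1 was higher and 1 lower, and Hprt alone of the 4 kept its call. Aprt, the salvage enzyme gene for adenine, had -0.52 and lies on chromosome 8, and Ppat (-0.38) and Prps1 (-0.31) act early in purine synthesis. Of 19 imprinted genes 4 were lower and 1 higher (26.3% called, against 16.9% of all genes). Besides Mest these were Plagl1 (-1.87), a zinc finger gene, Sgce (-0.59), a sarcoglycan gene, Slc38a4 (-0.37) and, in the other direction, Dlk1 (1.46), a Notch-family gene. Without probe sets that may cross-hybridize, Dlk1 and Plagl1 rested on dim probe sets and did not pass (0.31 and -1.50, adjusted p = 0.678 and 0.117). Of 6 genes that report on the sex chromosomes 3 were lower. These were Tsix (-1.37, listed under the floor in both lines), Xist (-0.82) and the Y-linked gene Eif2s3y (-0.43). Xist did not pass without probe sets that may cross-hybridize or with its probe sets averaged. Eif2s3y did not pass with median centring, with probe sets averaged or with the replicate block, nor did Tsix with quantile normalization.

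Markers of other cell types were compared as whole lists. Of the fibroblast, extraembryonic endoderm, trophectoderm and blood and endothelium lists 53.8%, 21.4%, 10% and 10% were called, against 16.9% of all genes. Of 13 fibroblast markers 4 were higher and 3 lower. The summed signal was 13.13 to 13.43 in Trim33-KD and 13.51 to 13.82 in Smad4-null, and Postn was near the bottom of the scale in both (1.10 and 1.96). The decorin gene Dcn was 4.50 ± 1.59 against 7.86 ± 0.22 and Acta2 had -1.20, while the called genes Cdh11, Vim (0.97), Col1a1 (0.65) and Thy1 (0.63) went the other way. Among 14 extraembryonic endoderm markers 2 were higher (Amn, 0.63, and Col4a1, 0.48) and 1 lower (Rhox5, -1.24), with summed signals of 12.92 to 13.13 and 13.08 to 13.18. Neither Amn nor Col4a1 passed with the replicate block. Of 10 trophectoderm markers Cdx2, which the posterior list holds too, was the single call. Their summed signal was 12.23 to 13.40 in Trim33-KD and 11.53 to 11.69 in Smad4-null, led by the keratin genes Krt8 (1.74, adjusted p = 0.0521) and Krt18 (0.82), while Gata3 and Elf5 were dim in both lines. Of 10 blood and endothelium markers 1 passed, Tek, lower by 1.37. The part of other cell types in the gene groups above was not tested.

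With activin alone 1261 genes (6.93%) differed between the lines, 670 higher in Trim33-KD (3.68%) and 591 lower (3.25%). With SB431542 alone 1061 (5.83%) differed, 691 higher (3.8%) and 370 lower (2.03%). These comparisons share no arrays, only the estimate of spread. Of the genes called in both, 696 in number (55.2% of the activin calls and 65.6% of the SB431542 calls), 687 had the same direction. The difference had the same sign under the other treatment for 90.5% of the activin calls and 96.4% of the SB431542 calls, against 68.1% of all genes. Both counts fell steeply with fewer arrays. With activin the count was 0 without Trim33-KD-ac replicate 2, 12 without Smad4-null-ac replicate 1, 19 without Trim33-KD-ac replicate 1 and 167 without Smad4-null-ac replicate 2, while leaving out an SB431542 array gave 333 (either Smad4-null array) or 696 (either Trim33-KD array). With SB431542 it was 0 without either Smad4-null-SB array, 6 without Trim33-KD-SB replicate 2 and 20 without Trim33-KD-SB replicate 1, while leaving out an activin array gave 469 (either Smad4-null array) or 571 (either Trim33-KD array). These counts came from limma with 1 array left in a group, which was assumed to vary like the other groups. Where the count was 0, 3822 genes (activin) and 3011 or 2851 genes (SB431542, without replicate 1 or 2) had an unadjusted p under 0.05.

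The difference between the responses, that is activin minus SB431542 in Trim33-KD less the same in Smad4-null, passed for 0 genes (0%) in limma. There were 1392 genes with an unadjusted p under 0.05, where chance gives 910, and the smallest adjusted p was 0.206. Activin-responsive genes still differed in level by treatment. Smad7, the inhibitory Smad gene, had 8.64 and 9.30 with SB431542 and 11.39 and 11.68 with activin in Trim33-KD. In Smad4-null it had 8.52 and 8.85 with SB431542 and 8.82 and 9.02 with activin. The lines overlapped with SB431542 and were wide apart with activin, by 2.62 (adjusted p = 0.0146), and the responses were 2.56 and 0.23. Their difference was 2.33 with a 95% interval of 1.38 to 3.28, but it did not pass over all genes (adjusted p = 0.31).

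Pmepa1, which restrains Smad signalling, had 7.73, 8.15, 9.82 and 9.87 in Trim33-KD (SB431542, then activin) and 7.42, 7.54, 7.90 and 8.10 in Smad4-null. Its responses of 1.91 and 0.52 differed by 1.38 (0.77 to 2.00; adjusted p = 0.328). Fgf15 showed the opposite arrangement, with 7.32, 6.94, 9.64 and 9.74 against 8.84, 8.93, 9.50 and 9.54. The lines were close with activin (0.17), Trim33-KD was lower with SB431542 (-1.76, adjusted p = 0.0137), and the responses of 2.56 and 0.63 differed by 1.93 (1.38 to 2.48). This was the smallest adjusted p of the genes named here (0.212), and when the fit held the brighter 50% of genes alone, Fgf15 passed (adjusted p = 0.0494). Msx1 combined the patterns: it was higher in Trim33-KD under both treatments, by 1.96 with activin and 1.09 with SB431542, and the difference between responses was 0.87 (0.41 to 1.34). Lefty1 had 11.50, 12.09, 13.51 and 13.70 against 12.40, 12.46, 13.79 and 13.58, and its responses of 1.81 and 1.26 differed by 0.55 with an interval from -0.24 to 1.34 that includes 0. Lefty2 (0.66, from 0.14 to 1.17) and Myc (0.85, from 0.29 to 1.41) had intervals above 0 before adjustment. Eomes (-0.21), Cer1 (-0.01) and Nodal (0.23) had intervals that include 0. The intervals are not adjusted for the number of genes.

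**Figure D4:**
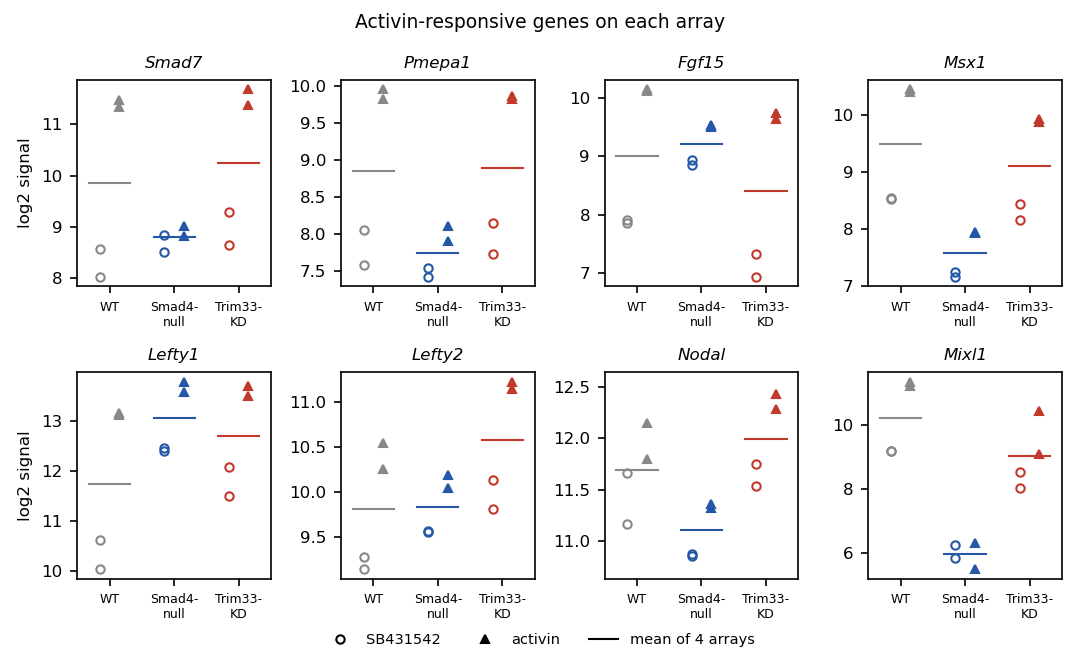
Log2 signal (vertical axis, scaled per gene) of 8 activin-responsive genes on all 12 arrays by line; open circles are SB431542, filled triangles activin, and bars the mean of the 4 arrays of a line. The Smad4-null arrays of Smad7 lie between 8.52 and 9.02 under both treatments, and those of Fgf15 between 8.84 and 9.54.

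The difference was uneven along the genome, read from gene order alone. In the brighter 50% of genes the median difference was 0.49 on chromosome 14 (304 genes) and -0.18 on chromosome 8 (522 genes), while the other 18 chromosomes, X among them, lay between -0.03 and 0.10. With chromosome 14 split into 8 runs of equal gene number, the difference lay in runs 4 to 8. There the median was 0.70, Smad4-null had 61.3% of the Trim33-KD signal, and 142 of 190 genes were called higher and 3 lower, against 11 and 11 of 114 in the first 3 runs. Runs 6 to 8 of chromosome 8 had -0.40, Smad4-null had 132% of the Trim33-KD signal, and 96 of 196 genes were called lower and 5 higher. Its runs 1 to 5 had -0.06. Each run from the fourth on chromosome 14 had higher array medians on all Trim33-KD arrays than on any Smad4-null array; in the seventh, which holds Nefl and Nefm, they were 9.59 to 9.69 against 8.84 to 8.89.

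Against WT the chromosome 14 genes had -0.01 in Trim33-KD and -0.54 in Smad4-null, and those of chromosome 8 had 0.03 and 0.21. Of all 3078 called genes 426 (13.8%) lie on these chromosomes, and with their 1572 genes left out before adjustment 2552 of the others were called. Among the lists, they hold 3 of the 9 called naive genes, 2 of the 7 called FGF genes, 2 of the 7 called ERK targets and 2 of the 4 called neuroectoderm genes, but 0 of the called Wnt targets, BMP, nodal, ATF4, germ cell and p53 genes. How far the position of a gene on them enters its difference was not tested.

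**Figure D5:**
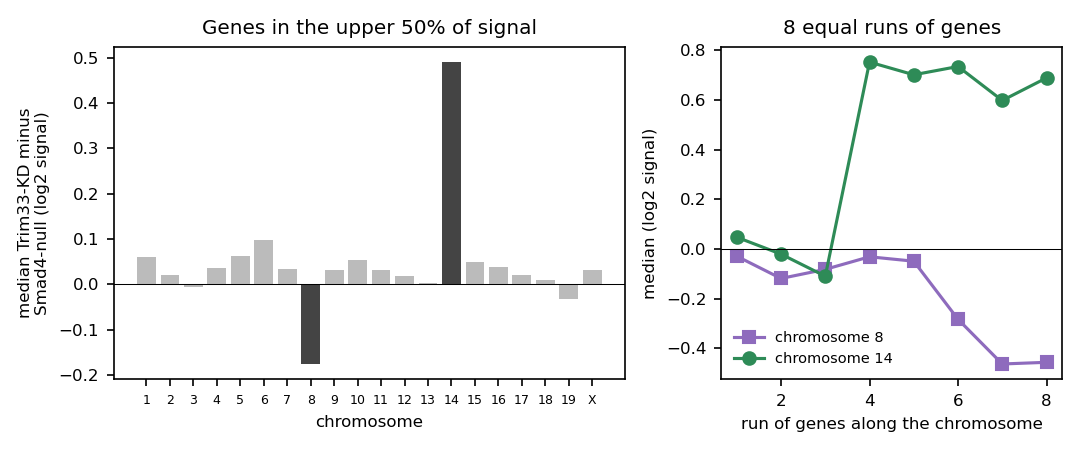
Left, median line difference (Trim33-KD minus Smad4-null, log2 signal) for the brighter 50% of genes on each chromosome, with chromosomes 8 (-0.18) and 14 (0.49) in dark grey. Right, the same median in 8 equal runs of genes along chromosomes 8 (squares) and 14 (circles), where the line for chromosome 14 steps from -0.11 in the third run to 0.75 in the fourth and that for chromosome 8 falls from -0.05 in the fifth to -0.46 in the seventh.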

How the data were processed

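Values are the authors' deposited log2 signals of 12 Affymetrix arrays, 1 per sample, of which 8 entered the comparison. The submitters' processing notes name limma; the summarization method and the genome build are not given in the sources used here. In linear form WT-ac replicate 1, the only array examined for it, had a trimmed mean of 500 (2% trimmed). Of 45101 probe sets, 34945 carried 1 symbol (932 several, 9160 none), and the brightest over 12 arrays stood for each of 18193 genes.

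A model with 4 group means (2 arrays each) was fitted in limma 3.58.1 (R 4.3.3; figures with Python 3.11.15, matplotlib 3.10.9), with Benjamini-Hochberg adjustment over all genes and a threshold of 0.05. It was tested on simulated data first. A floored difference is one after raising signals under 64 (log2 6) to it.

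Named by rule were Smad4, Trim33, Hprt, the 12 genes in each direction with the largest floored difference among calls without overlap, up to 5 in each direction for each treatment and for the responses, all members of the mesendoderm, Smad feedback and nodal lists, and up to 4 called members of each other list. Any other list gene given by name was picked with its value known. The 36 lists and the members were chosen with earlier results of these data known. Of 438 list genes 411 were measured and the other 27 were not analysed here.

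Replicate numbers were checked for pairing: deviations of same-numbered arrays correlated between -0.21 and 0.34, so the numbers were not taken as pairs. Alternatives were quantile normalization, median centring, filters on low signal, the floor, other choices among probe sets, a trended prior, array weights, all 12 arrays, an additive fit, a 1.5-fold minimum, the replicate block, chromosomes 8 and 14 left out, and each array left out.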

Additional observations from a re-analysis of the deposited data

How the results depend on the processing

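The line difference (3078 genes) stayed within 1.5 times under each setting listed in the processing that kept all 8 arrays, the replicate block (2263) included. Leaving out single arrays gave 1122 to 2073 genes, and leaving out both doubted arrays, an alternative chosen after seeing the data, gave 0 for every comparison. The activin comparison (1261) became 2235 and 2256 in the brighter 50% and 75% of genes, 2614 with the floor, 2694 with a trended prior, 768 with probe sets averaged per gene, 798 with array weights, 579 with the replicate block and 0 to 696 with single arrays left out. The SB431542 comparison (1061) became 2199, 1981, 2457, 2407 and 680 under the first 5 of these, 259 with the replicate block and 0 to 571 with single arrays left out. The difference between responses (0) became 1 in the brighter 50% (Fgf15), 1 with the floor (Adamts16) and 2 with all probe sets (Dcdc2b and Slc41a1), and stayed 0 with the replicate block and with any array left out. The median of chromosome 8 moved to -0.0059 with median centring and -0.25 with the mean of probe sets, and that of chromosome 14 to 0.66 and 0.36.

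Of 132 called genes named by rule 69 kept their call under every setting other than the joint removal, 56 lost it when at least 1 array was left out, 16 with the replicate block (Aprt, Ppat, Prps1, Nars, Kars, Psat1, Pou5f1 and Sox2 among them) and 3 with the floor (Cdx1, Gsc and Hesx1). Ccnd3 reversed with the mean of its probe sets (-0.76). Of 828 list medians under alternatives 717 moved by less than the spread between replicates. A trended prior, array weights, the replicate block, the additive fit and the fit with WT included left every list median as it was. These settings count among the 717 but are no test of the medians. The median changed sign under at least 1 alternative for 19 of the 36 lists. Among these were the Cdx and Hox, FGF, and blood and endothelium lists (0.63, 0.46 and -0.75 in the main fit). The cause of these changes was not tested, beyond fewer arrays or fewer genes where an alternative removes them. Signals near background limit the folds of dim genes.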

Other observations

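Genes outside the pathways described above differed one by one. Of the matrix, cadherin and interferon lists 29.4%, 23.1% and 45.5% were called, against 16.9% of all genes. Of 17 matrix, laminin and integrin genes 3 were higher in Trim33-KD (Itgb5, 0.92, Col4a1, 0.48, and Col4a2, 0.33) and 2 lower, the integrin genes Itga6 (-1.01) and Itgb1 (-0.39), with a median of 0.13. Neither Col4a1 nor Itgb1 passed with the replicate block or with any 1 array left out. The collagen genes and Itgb1 lie on chromosome 8. Of 13 genes of cadherins and epithelial to mesenchymal transition Vim (0.97), an intermediate filament gene, was higher, and Fn1 (-0.81) and the P-cadherin gene Cdh3 (-0.53) were lower, with a median of -0.11. Of 11 interferon response genes the antigen presentation genes Psmb8 (1.21), Tap1 (0.95) and B2m (0.58) were higher, and Ifitm1 (-0.73) and Ifit1 (-0.61) were lower, with a median of 0.05.

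Of 15 cell cycle regulators 1 was higher (Ccnd3, 0.55, a cyclin D gene with a probe set above the floor that went the opposite way) and 1 lower (Cdkn2a, -1.06, the p16 and p19 locus). Of 14 hypoxia and glycolysis genes 1 was lower (Pfkp, -1.14), with a median of -0.21. Of 8 housekeeping genes 1 passed (Gusb, 0.44), with a median of -0.04. Called shares of the cell cycle, hypoxia and housekeeping lists were 13.3%, 7.1% and 12.5%, under the 16.9% of all genes. WT lay nearer to Trim33-KD for 14 of the 15 naive pluripotency genes and 2 of the 12 ATF4 genes.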
